A study of Mus musculus with 48 samples.

Results

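Tmem50b, Syap1, Nt5dc2 and Wiz are 4 mRNAs, of 20171 genes in the deposited count table, that were recovered with HA-tagged Tnrc6a far less well from mouse embryonic stem cells without Ago2 than from other tagged cells. They were chosen on these very values, a much lower ratio of immunoprecipitate (IP) to input in Ago2 knockout lysates, so that difference is described below and not tested. What was open to a test was what the beads took from untagged cells. All 4 genes passed the filter on low counts in every comparison.

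Tnrc6a is one of the mammalian GW182 proteins. These proteins bind Argonaute proteins, which carry microRNAs, and bring in the deadenylases that shorten the poly(A) tail of a targeted mRNA. Ago2 is the Argonaute that can also cleave a fully paired target. An mRNA recovered with Tnrc6a can therefore be held through an Argonaute, through another RNA-binding protein or through Tnrc6a itself. Of the 4 mRNAs, Tmem50b encodes a small multi-pass membrane protein, Syap1 a BSD-domain protein first linked to synapses, Nt5dc2 a member of a nucleotidase-like family and Wiz a zinc-finger protein that binds the histone methyltransferases Ehmt1 and Ehmt2.

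RNA was sequenced from cleared lysates (inputs) and from what magnetic HA beads recovered from equal amounts of lysate protein (IPs). All cells are mouse embryonic stem cells of strain 129S6/SvEvTac with the GFP_5xT71BS reporter and, per the growth protocol, a stable FLAG-Cas9::T2A::Blasticidin transgene. The 4 genotypes are the untagged control, cells with an HA-AVI tag on Tnrc6a (HA-Tnrc6a), and tagged cells that are also Ago2-/- (Ago2KO) or Upf1-/- (Upf1KO). Upf1 is a helicase of nonsense-mediated decay. Experiments 3 and 4 have the same layout, so 16 groups of 3 libraries make 48 libraries. Which columns of the table belong to which experiment was inferred from their numbering, and every value given by experiment rests on that. Cells were grown in triplicate. The number of clones behind a genotype is not given in the sources used here, and if it is 1, a difference between clones and the effect of the genotype cannot be told apart.

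Total counts ran from 11471544 to 19595405 per library in experiment 3 and from 25724085 to 73845953 in experiment 4. Levels are given in CPM, counts per library rescaled with TMM factors from all 48 libraries, a scaling that sets aside genes with extreme ratios. Ago2 mRNA stood at 94.6 ± 2.20 and 129.9 ± 5.65 CPM in Ago2KO inputs (SD, n = 3 each, experiments 3 and 4), against 207 ± 2.62 and 316 ± 11.6 CPM in HA-Tnrc6a inputs. The Upf1 transcript was no check of its label: inputs labelled Upf1KO had more of it, 123 ± 0.874 and 139 ± 3.47 CPM, than those of HA-Tnrc6a cells, 77.6 ± 4.95 and 98.5 ± 1.58 CPM. Values for Upf1KO below therefore refer to the libraries labelled so. The mRNA of the tagged protein, Tnrc6a, was higher in Ago2KO inputs, at 99.2 ± 2.44 and 124.5 ± 4.73 CPM. It was at 69.0 ± 4.11 and 88.2 ± 3.49 CPM in HA-Tnrc6a inputs and at 69.7 ± 1.28 and 83.8 ± 4.08 CPM in Upf1KO inputs. What this difference does to recovery was not tested. Among HA-Tnrc6a inputs in experiment 3, replicate 3 stood apart from replicates 1 and 2. Its chi-square per degree of freedom was 34.29 and 28.91, against 2.662 between those 2. Other groups were uneven too. In experiment 4, replicate 1 stood apart in Upf1KO IPs (26.32 and 36.19 against 4.691) and in HA-Tnrc6a IPs (22.49 and 18.98 against 7.839). Pairs of untagged IPs in experiment 3 ran from 17.1 to 29.9. All 9 stem cell markers were present in the inputs, and their sums were higher in Ago2KO (7998 to 8465 CPM in experiment 3, 7609 to 7727 CPM in experiment 4) than in HA-Tnrc6a inputs (7707 to 7849 and 7346 to 7468 CPM). Sums of 4 endoderm markers were lowest in Ago2KO inputs (4.52 to 5.12 CPM, against 6.88 to 42.0 CPM in all other inputs), and sums of 3 neural markers in Ago2KO inputs (90.1 to 111 CPM) were above those of HA-Tnrc6a (67.1 to 84.9 CPM). Sums of 3 fibroblast markers were lower in Ago2KO inputs (23.0 to 29.5 and 20.5 to 22.8 CPM) than in those of HA-Tnrc6a (33.2 to 35.2 and 28.2 to 29.2 CPM). Most of the fibroblast sum was Thy1 (mean 26.0 CPM over all inputs, beside 0.271 CPM for Col1a2). Most of the neural sum was Tubb3 (70.1 CPM, beside 0.659 CPM for Pax6). The part of these differences in the results was not tested, and in bulk lysates fewer cells of a type and less RNA per cell cannot be told apart.

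The 4 mRNAs were of middling to high abundance. Per kilobase of gene length, mean input levels were 10.9 RPKM for Tmem50b (ENSMUSG00000022964), 9.21 RPKM for Syap1 (ENSMUSG00000031357), 38.3 RPKM for Nt5dc2 (ENSMUSG00000071547) and 7.43 RPKM for Wiz (ENSMUSG00000024050). These levels rank at the 74.7th, 71.4th, 92.4th and 66.8th percentile of all genes in the table. The gene length column gives 2446, 2351, 2378 and 9242 bases. In GRCm38.p6, Tmem50b lies at chr16:91574508-91597680, Syap1 at chrX:162856843-162888462, Nt5dc2 at chr14:31131089-31139124 and Wiz at chr17:32354047-32389501. The annotated span of Nt5dc2 overlaps that of Stab1 by 108 bases, and Mir3473a overlaps Syap1 over 78 bases. Neither neighbour has a value here, and whether counting used strand is not given in the sources used here, so counts of Nt5dc2 and Syap1 are uncertain to that extent.

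The order of the genotypes was shared by the 4 mRNAs. In each experiment the untagged IPs were lowest, the Ago2KO IPs lay between, and the HA-Tnrc6a and Upf1KO IPs were highest. For all 4 mRNAs and both experiments, no Ago2KO IP reached the lowest HA-Tnrc6a or Upf1KO IP, and none came down to the highest untagged IP. Of all 20170 genes with enough counts, 1.98% had this order in both experiments, and since the 4 were chosen for low Ago2KO recovery nothing is read from their count.

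**Figure D1:**
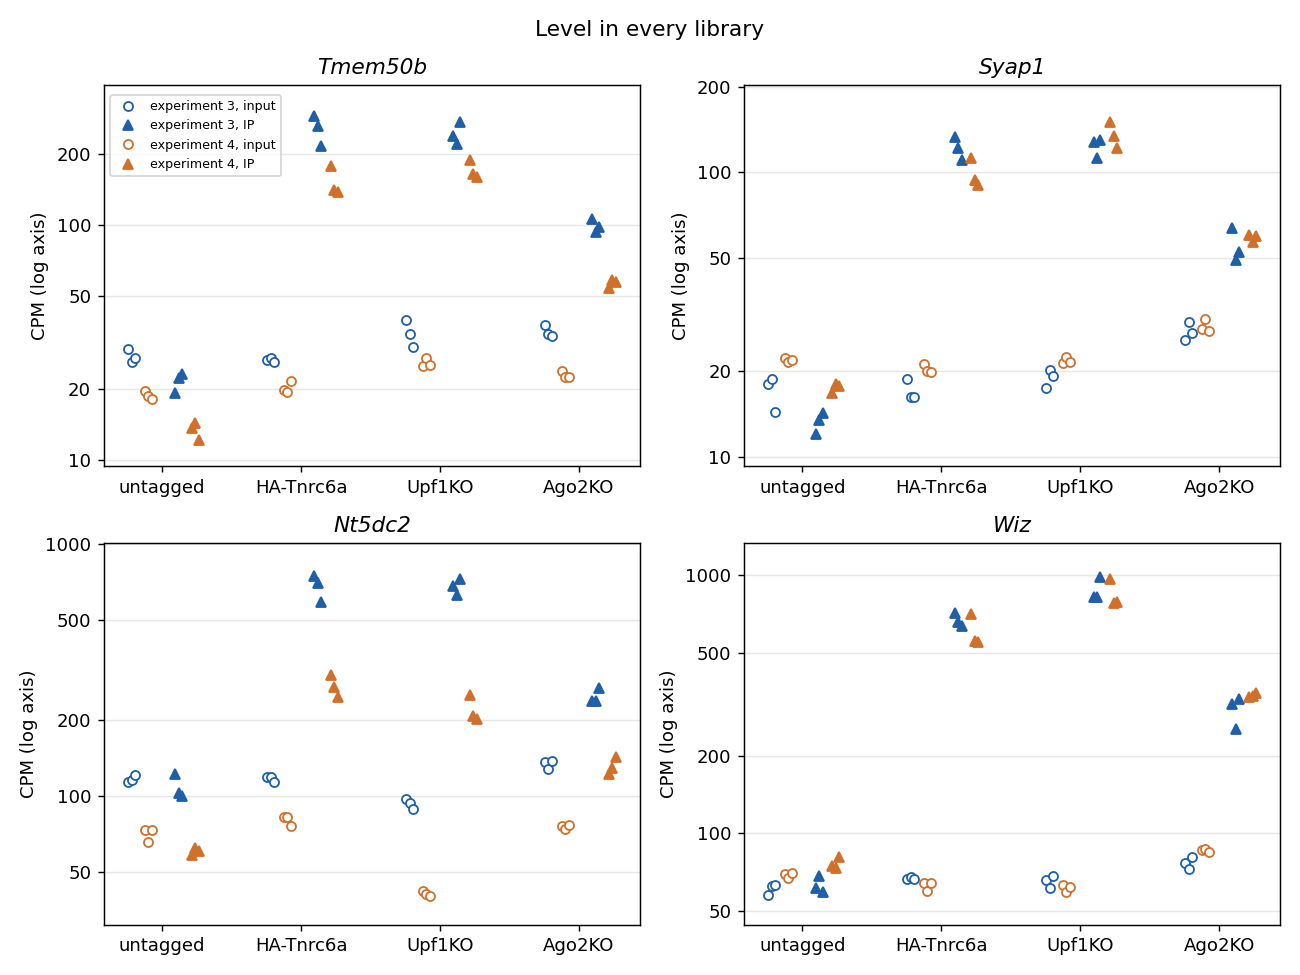
Level of each mRNA in every library, in CPM on a log axis, by genotype. Open circles are inputs and filled triangles IPs, in blue for experiment 3 and orange for experiment 4. In every panel the Ago2KO triangles sit between those of untagged and those of HA-Tnrc6a cells of the same experiment (same colour).

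Tmem50b had the largest difference between HA-Tnrc6a and Ago2KO cells of the 4. Its HA-Tnrc6a IPs held 292, 264 and 216 CPM in experiment 3 and 178, 141 and 139 CPM in experiment 4. Ago2KO IPs held 106, 93.2 and 98.2 CPM and then 54.1, 58.3 and 57.1 CPM. In both experiments the highest Ago2KO library thus stayed below the lowest HA-Tnrc6a library. The gap was larger than the whole range of either group.

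In the untagged IPs Tmem50b was at 19.4, 22.5 and 23.3 CPM and at 13.7, 14.4 and 12.2 CPM. Upf1KO IPs, at 240.2, 221 and 275 CPM and at 189, 165 and 159.8 CPM, overlapped those of HA-Tnrc6a cells in both experiments. The inputs of the 2 knockouts stood above the other inputs in experiment 3, at 35.2 ± 1.91 CPM for Ago2KO and 34.9 ± 4.62 CPM for Upf1KO (SD, n = 3), against 26.7 ± 0.428 CPM for HA-Tnrc6a and 27.7 ± 1.80 CPM for untagged. In experiment 4 they were 23.1 ± 0.803, 26.0 ± 1.14, 20.3 ± 1.25 and 18.9 ± 0.714 CPM in the same order. Lower recovery of Tmem50b without Ago2 therefore came with a slightly higher input and a lower IP.

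As a ratio of IP to input, Tmem50b was recovered 9.65 ± 0.834-fold and 7.50 ± 0.674-fold from HA-Tnrc6a lysates (SE, experiments 3 and 4) and 2.81 ± 0.138-fold and 2.45 ± 0.0727-fold from Ago2KO lysates. The Upf1KO ratios were 7.03 ± 0.704 and 6.60 ± 0.387. Untagged lysates gave 0.783 ± 0.0517 and 0.711 ± 0.0373, so the beads took less Tmem50b than an average RNA when there was no tag. Over both experiments the difference in log2 IP over input between Ago2KO and HA-Tnrc6a was -1.70 ± 0.09 (SE), with -1.78 ± 0.13 in experiment 3 and -1.62 ± 0.12 in experiment 4.

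Syap1 had the lowest count of the 4, with 159 counts in an untagged IP, and the highest input in Ago2KO cells relative to other cells. Its HA-Tnrc6a IPs held 133, 121 and 111 CPM in experiment 3 and 112, 94.1 and 90.5 CPM in experiment 4. Ago2KO IPs held 63.5, 49.1 and 52.4 CPM and then 60.0, 56.8 and 59.8 CPM. The Ago2KO level was alike in the 2 experiments, while the HA-Tnrc6a level was lower in experiment 4, so the gap between them narrowed there.

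Upf1KO IPs held 127, 112 and 129.9 CPM of Syap1, within the range of HA-Tnrc6a IPs in experiment 3, but 150.2, 134 and 122 CPM in experiment 4, where all 3 were above the highest HA-Tnrc6a IP. Untagged IPs were at 13.2 ± 1.11 and 17.5 ± 0.698 CPM (SD, n = 3). Ago2KO inputs, at 25.8, 29.8 and 27.2 CPM and at 28.1, 30.5 and 27.7 CPM, were above every input of the other genotypes in their experiment. HA-Tnrc6a inputs were at 18.7, 16.2 and 16.2 CPM and at 21.1, 19.9 and 19.8 CPM. Compared with HA-Tnrc6a cells, Syap1 was thus a larger share of the Ago2KO inputs and a smaller share of the Ago2KO IPs.

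The ratio of IP to input for Syap1 was 7.14 ± 0.515 and 4.87 ± 0.340 in HA-Tnrc6a lysates (SE), 6.51 ± 0.410 and 6.23 ± 0.389 in Upf1KO lysates, and 1.99 ± 0.180 and 2.05 ± 0.0705 in Ago2KO lysates. Untagged lysates gave 0.774 ± 0.0732 and 0.800 ± 0.0203. The log2 difference between Ago2KO and HA-Tnrc6a was -1.55 ± 0.09 over both experiments, -1.84 ± 0.13 in experiment 3 and -1.26 ± 0.12 in experiment 4.

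Nt5dc2, the most abundant of the 4, varied most between experiments. HA-Tnrc6a IPs held 745, 701 and 586 CPM in experiment 3 but 301, 270.0 and 247 CPM in experiment 4. Ago2KO IPs held 237, 238 and 268 CPM and then 122, 128 and 142 CPM. Both genotypes were lower in experiment 4, and the groups did not overlap in either experiment.

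Part of that shift was already present in the lysates. Inputs of HA-Tnrc6a cells held 119, 118 and 113 CPM of Nt5dc2 in experiment 3 and 82.3, 82.3 and 75.9 CPM in experiment 4, and Ago2KO inputs held 136, 128 and 137 CPM and then 76.2, 73.6 and 76.3 CPM. The Ago2KO inputs were above all HA-Tnrc6a inputs in experiment 3 and overlapped them in experiment 4. Upf1KO inputs were the lowest in both experiments, at 97.4, 93.8 and 89.0 CPM and at 42.0, 40.8 and 40.1 CPM, while Upf1KO IPs, at 678, 628 and 725 CPM and at 250.5, 207 and 202 CPM, overlapped those of HA-Tnrc6a. Untagged inputs were at 117 ± 3.47 and 70.7 ± 4.54 CPM and untagged IPs at 109 ± 12.1 and 60.4 ± 1.89 CPM (SD, n = 3).

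Recovery of Nt5dc2 was 5.80 ± 0.417-fold and 3.40 ± 0.216-fold from HA-Tnrc6a lysates (SE), 7.25 ± 0.356-fold and 5.37 ± 0.383-fold from Upf1KO lysates and 1.85 ± 0.0869-fold and 1.74 ± 0.0824-fold from Ago2KO lysates. The untagged ratios were 0.929 ± 0.0620 and 0.854 ± 0.0352. In log2 terms Ago2KO was below HA-Tnrc6a by -1.31 ± 0.08 over both experiments, by -1.65 ± 0.11 in experiment 3 and by -0.97 ± 0.11 in experiment 4. Against Upf1KO the difference was larger, at -1.83 ± 0.07 over both experiments, and for this mRNA the low Upf1KO input enters that ratio.

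Wiz had the highest ratio of IP to input of the 4 in tagged cells. HA-Tnrc6a IPs held 715, 655 and 636 CPM in experiment 3 and 706, 556 and 551 CPM in experiment 4. Ago2KO IPs held 316, 254 and 331 CPM and then 338, 339 and 349 CPM. Upf1KO IPs held 823, 825 and 985 CPM and then 969, 782 and 784 CPM, above every HA-Tnrc6a IP of the same experiment. These 3 genotypes fell in 3 separate bands in both experiments, with Upf1KO highest and Ago2KO lowest.

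Inputs of Wiz were 67.0 ± 0.667 and 62.8 ± 2.45 CPM in HA-Tnrc6a cells (SD, n = 3), 65.2 ± 3.44 and 61.5 ± 2.15 CPM in Upf1KO cells, and 76.8 ± 4.31 and 85.8 ± 1.12 CPM in Ago2KO cells. All Ago2KO inputs, at 76.8, 72.5 and 81.1 CPM and at 85.8, 86.9 and 84.7 CPM, were above all other inputs of their experiment. Wiz was at 62.9 ± 4.67 and 76.3 ± 4.01 CPM in untagged IPs and at 60.9 ± 2.89 and 69.0 ± 1.77 CPM in untagged inputs. The beads thus took Wiz from untagged lysates about in proportion to its input.

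The ratio of IP to input for Wiz was 9.98 ± 0.358 and 9.62 ± 0.840 in HA-Tnrc6a lysates (SE), 13.5 ± 0.918 and 13.7 ± 1.04 in Upf1KO lysates, 3.91 ± 0.333 and 3.98 ± 0.0511 in Ago2KO lysates and 1.03 ± 0.0526 and 1.11 ± 0.0373 in untagged lysates. Log2 differences between Ago2KO and HA-Tnrc6a were -1.31 ± 0.08 over both experiments, -1.35 ± 0.12 in experiment 3 and -1.28 ± 0.12 in experiment 4. The gap between Ago2KO and HA-Tnrc6a was nearly the same size in the 2 experiments.

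**Figure D2:**
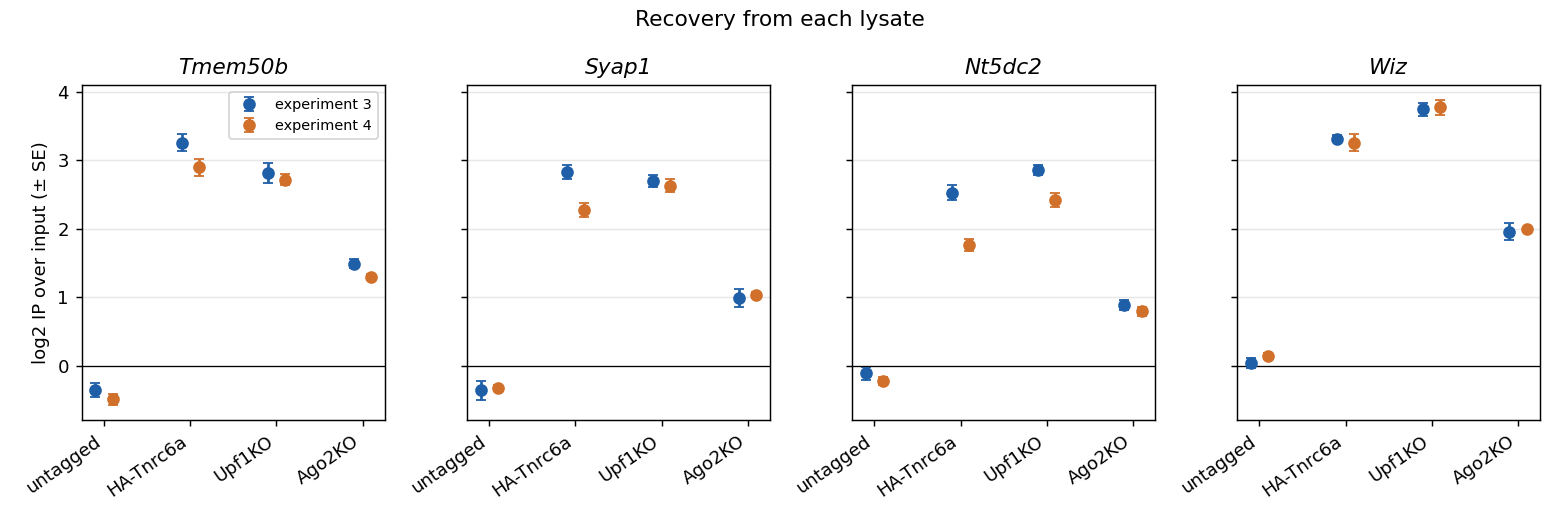
Log2 ratio of IP to input (± SE, n = 3 libraries per fraction) by genotype, blue for experiment 3 and orange for experiment 4. Untagged lysates lie near or below 0, Ago2KO lysates between 0.79 and 1.99, and the other tagged lysates between 1.76 and 3.77.

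Set against all genes, the median log2 difference of the 4 mRNAs between Ago2KO and HA-Tnrc6a was -1.43, and that of the 19995 genes tested was -0.04. With an adjusted p under 0.05 in edgeR's quasi-likelihood test, 12.3% of genes were lower in Ago2KO and 9.09% higher. Against Upf1KO the median of the 4 was -1.75, beside -0.03 over 19962 genes, of which 13.5% were lower and 10.9% higher. The single values against Upf1KO were -1.41 ± 0.08 for Tmem50b, -1.69 ± 0.08 for Syap1, -1.83 ± 0.07 for Nt5dc2 and -1.82 ± 0.08 for Wiz (SE). Since the 4 were chosen for low values in these comparisons, the percentages are given for scale and nothing is read from them. Both comparisons share the Ago2KO libraries.

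The order of the 4 depended on the reference. Against HA-Tnrc6a cells Tmem50b and Syap1 had the lowest values and Nt5dc2 and Wiz were level with each other. Against Upf1KO cells Nt5dc2 and Wiz were lowest, and Tmem50b was highest. The difference between the references is the Upf1KO value itself: relative to HA-Tnrc6a, log2 recovery from Upf1KO lysates was -0.27 ± 0.10 for Tmem50b, 0.16 ± 0.08 for Syap1, 0.54 ± 0.08 for Nt5dc2 and 0.52 ± 0.08 for Wiz (SE). For Nt5dc2 the Upf1KO input was lower, by -0.64 ± 0.03 on the log2 scale, with an IP at -0.14 ± 0.08. For Wiz it was the IP that differed, at 0.45 ± 0.08, with an input at -0.03 ± 0.03. Nt5dc2 and Wiz, with nearly the same ratio, thus reached it through different fractions.

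Splitting the ratio into its parts shows how much of each Ago2KO value lay in the IP. Compared with HA-Tnrc6a, log2 IP levels in Ago2KO cells were -1.37 ± 0.07 for Tmem50b, -0.91 ± 0.07 for Syap1, -1.22 ± 0.07 for Nt5dc2 and -0.95 ± 0.07 for Wiz (SE). Log2 input levels were 0.29 ± 0.05, 0.60 ± 0.05, 0.05 ± 0.03 and 0.32 ± 0.03 in the same order. The IP made up nearly all of the difference for Nt5dc2 and the smallest part for Syap1, whose input was the most raised. Over all genes the median was -0.01 in the inputs and -0.01 in the IPs.

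**Figure D3:**
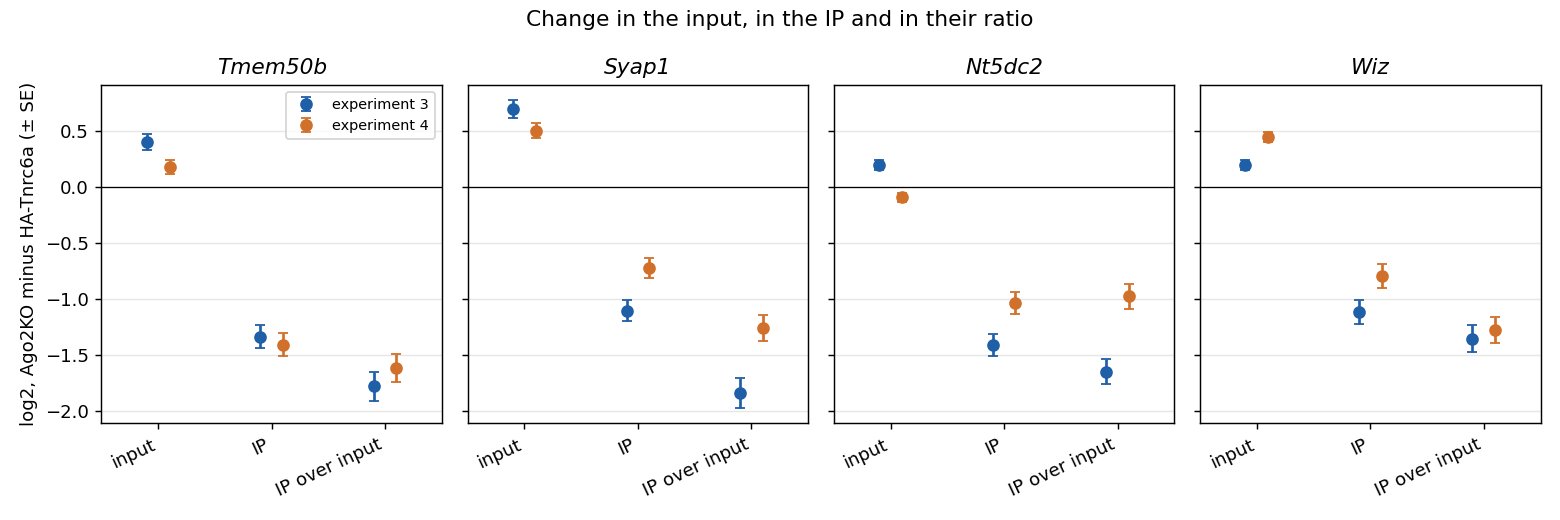
Log2 difference between Ago2KO and HA-Tnrc6a cells (± SE) in the input, in the IP and in their ratio, blue for experiment 3 and orange for experiment 4. The IP is below 0 in every panel, the input is above 0 except for Nt5dc2 in experiment 4 (-0.09), and the ratio lies between -1.84 and -0.97.

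Recovery without Ago2 was not at the level of the beads alone. Relative to untagged cells, log2 recovery from Ago2KO lysates was 1.83 ± 0.08 for Tmem50b, 1.38 ± 0.10 for Syap1, 1.02 ± 0.07 for Nt5dc2 and 1.90 ± 0.07 for Wiz (SE), beside 3.52 ± 0.10, 2.92 ± 0.10, 2.33 ± 0.08 and 3.21 ± 0.08 from HA-Tnrc6a lysates. The share that was left can be given on the linear scale, as the ratio of IP to input less that of untagged lysates, in percent of the same quantity in HA-Tnrc6a lysates. For Tmem50b it was 22.9 ± 2.70% and 25.6 ± 2.79% (SE by error propagation, experiments 3 and 4), for Syap1 19.1 ± 3.35% and 30.6 ± 3.10%, for Nt5dc2 18.9 ± 2.62% and 34.7 ± 4.46%, and for Wiz 32.1 ± 3.96% and 33.8 ± 3.40%. The values lay between 18.9% and 34.7% throughout, with Wiz alike in both experiments and Nt5dc2 the most different between them. In Upf1KO lysates the same share ran from 70.5 ± 10.3% (Tmem50b, experiment 3) to 177 ± 21.3% (Nt5dc2, experiment 4). These percentages take bead background to fill the same part of tagged and untagged IPs. Read as amounts of RNA, they also take the total RNA recovered to be alike in the tagged genotypes. CPM are shares of what was sequenced, so neither could be tested here.

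Untagged libraries took no part in the choice of the 4 mRNAs, so bead background could be tested. In untagged cells Tmem50b was under-represented in the IP, with a log2 IP-over-input ratio of -0.43 ± 0.07 (SE, 3 libraries per group, edgeR quasi-likelihood Benjamini-Hochberg adjusted p = 6.21e-05). Syap1 was lower as well, at -0.35 ± 0.08 (edgeR adjusted p = 0.000981), and Nt5dc2 at -0.17 ± 0.06 (edgeR adjusted p = 0.0202). Wiz, at 0.09 ± 0.05, did not pass (edgeR adjusted p = 0.19). So 3 of the 4 were lower and none higher, where 17.8% of the 19299 genes tested were lower, 18.0% higher and the median was -0.03.

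The signs held in each experiment. Values were -0.36 and -0.50 for Tmem50b, -0.38 and -0.33 for Syap1, -0.11 and -0.24 for Nt5dc2 and 0.05 and 0.13 for Wiz. Tmem50b and Syap1 passed in both experiments, Nt5dc2 in experiment 4 only (edgeR adjusted p = 0.399 and 0.0276) and Wiz in neither. Nt5dc2 is the least secure of these. Without replicate 3 of the untagged inputs of experiment 3, replicates 1 or 3 of those of experiment 4, replicates 2 or 3 of the untagged IPs of experiment 3, or replicate 1 of those of experiment 4, its edgeR adjusted p lay between 0.0536 and 0.057, with values from -0.16 to -0.15. With library totals in place of TMM the median of all genes itself moved by -0.17, and Wiz stood at -0.08 (edgeR adjusted p = 0.232, 0.0987 to 0.415 over all alternatives). The bead background of the 4 mRNAs did not differ detectably between experiments, with edgeR adjusted p values of 0.682 for Tmem50b, 0.931 for Syap1, 0.628 for Nt5dc2 and 0.754 for Wiz, while 2.86% of genes passed that test.

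The size of the Ago2KO difference in each experiment comes from the libraries that chose the mRNAs and is given with no test. Taken as experiment 4 less experiment 3, the log2 difference to HA-Tnrc6a moved by 0.16 ± 0.18 for Tmem50b, 0.58 ± 0.18 for Syap1, 0.68 ± 0.16 for Nt5dc2 and 0.08 ± 0.17 for Wiz (SE). Tmem50b and Wiz thus lay within 1 SE of equal values, and Syap1 and Nt5dc2 had a smaller difference in experiment 4. Over all genes, 0.195% had an adjusted p under 0.05 for such a difference between experiments, a share given for scale.

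Between the experiments, the ratios of Syap1 and Nt5dc2 moved more in HA-Tnrc6a than in Ago2KO lysates. For Syap1 HA-Tnrc6a recovery was 7.14-fold and 4.87-fold, beside 1.99-fold and 2.05-fold in Ago2KO lysates. For Nt5dc2 it was 5.80-fold and 3.40-fold, beside 1.85-fold and 1.74-fold. Upf1KO recovery was also lower in experiment 4 for Nt5dc2, at 7.25-fold and then 5.37-fold, and was 6.51-fold and 6.23-fold for Syap1. Relative to untagged lysates, Ago2KO recovery differed between the experiments by -0.03 ± 0.17 for Tmem50b, 0.01 ± 0.19 for Syap1, 0.06 ± 0.14 for Nt5dc2 and -0.04 ± 0.14 for Wiz on the log2 scale (SE), less than 1 SE from 0 for each mRNA.

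Against Upf1KO lysates the log2 difference moved by -0.01 ± 0.16 for Tmem50b, 0.19 ± 0.16 for Syap1, 0.44 ± 0.14 for Nt5dc2 and 0.10 ± 0.16 for Wiz (SE), with 0.125% of all genes past the threshold. Nt5dc2 was again the mRNA with the largest value.

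**Figure D4:**
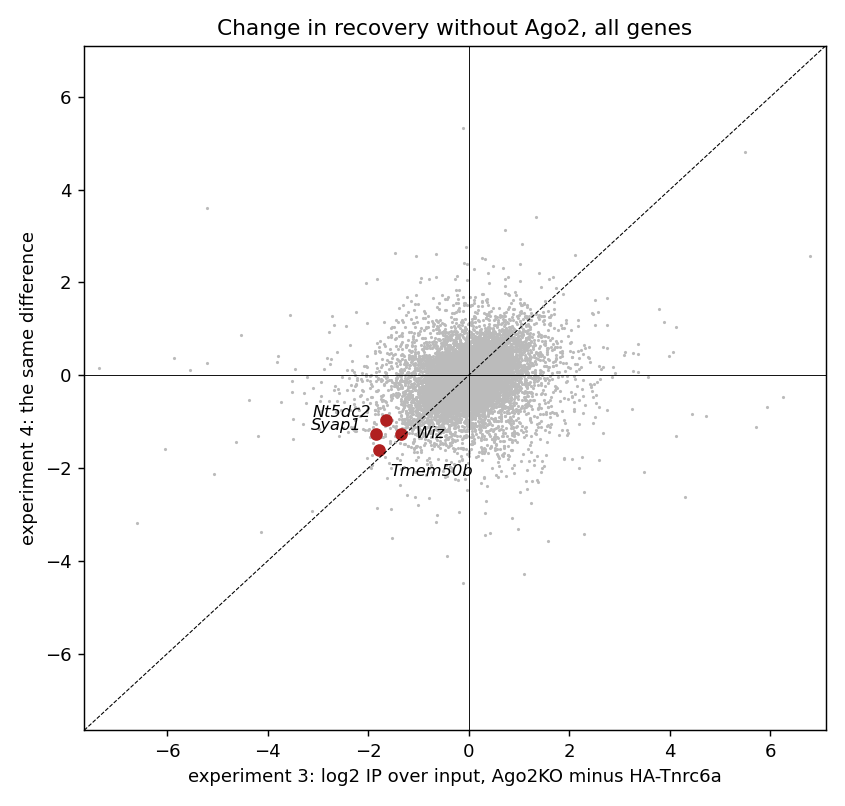
Log2 difference in IP over input between Ago2KO and HA-Tnrc6a cells for each gene tested, experiment 3 on the horizontal and experiment 4 on the vertical axis, with the 4 mRNAs in red and equal values on the dashed line. Tmem50b (-1.78 and -1.62) and Wiz (-1.35 and -1.28) lie near the line, and Syap1 (-1.84 and -1.26) and Nt5dc2 (-1.65 and -0.97) above it.

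In a list of 7 relatives and partners of the 4 encoded proteins, the log2 difference between Ago2KO and HA-Tnrc6a recovery was lower with an adjusted p under 0.05 for 1 gene and higher for 1, and the median was -0.02. These counts are near the 12.3% lower and 9.09% higher among all genes. Tmem50a, the paralog of Tmem50b, was at 0.01 ± 0.10 (SE, edgeR adjusted p = 0.973), and its recovery from HA-Tnrc6a lysates relative to untagged ones was -0.24 ± 0.10. Recovery of Tmem50a mRNA was thus no higher with the tag than without it.

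Within the Nt5dc2 family, Nt5dc1 was lower in Ago2KO lysates, at -0.37 ± 0.13 (edgeR adjusted p = 0.0389), and Nt5dc3 was higher, at 0.46 ± 0.09 (edgeR adjusted p = 0.000307). Nt5c2, a cytosolic purine nucleotidase, was at -0.02 ± 0.07 (edgeR adjusted p = 0.886). In HA-Tnrc6a cells Nt5dc3 recovery over untagged cells was 2.97 ± 0.12 on the log2 scale, beside 2.33 ± 0.08 for Nt5dc2, and both were thus recovered above the beads in tagged cells. The partners of Wiz did not pass. Ehmt1 was at 0.06 ± 0.07, Ehmt2 at -0.06 ± 0.06 and Zfp644, a zinc-finger protein of the same complex, at -0.09 ± 0.07 (edgeR adjusted p = 0.573, 0.531 and 0.385). Against Upf1KO, 2 of the 7 were lower (Nt5dc1, -0.53 ± 0.15, and Zfp644, -0.29 ± 0.06, edgeR adjusted p = 0.00502 and 0.000157) and Nt5dc3 was higher (0.53 ± 0.08, edgeR adjusted p = 6.89e-07). Among all genes, 13.5% were lower and 10.9% higher against Upf1KO.

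Among 7 mRNAs of the silencing machinery, 3 had lower recovery in Ago2KO than in HA-Tnrc6a lysates and none had higher, with a median of -0.18, where 12.3% of all genes were lower, 9.09% were higher and the median was -0.04. Ago2 mRNA itself was at -1.35 ± 0.07 (edgeR adjusted p = 1.19e-16), Ago3 at -0.66 ± 0.10 (edgeR adjusted p = 8.5e-06) and Ago1 at -0.29 ± 0.08 (edgeR adjusted p = 0.00889). Ago4 was at 0.76 ± 0.32 against HA-Tnrc6a but at -0.60 ± 0.29 against Upf1KO, and passed in neither (edgeR adjusted p = 0.0859 and 0.135). Tnrc6a, Tnrc6b and Tnrc6c, the mRNAs of the GW182 proteins, were at 0.11 ± 0.17, -0.18 ± 0.08 and 0.07 ± 0.07 (edgeR adjusted p = 0.716, 0.0914 and 0.566). Tnrc6a, the mRNA of the tagged protein, was at 0.40 ± 0.23 in experiment 3 and -0.19 ± 0.23 in experiment 4. Its level was 26548 ± 7496 and 10684 ± 1911 CPM in HA-Tnrc6a IPs (SD, experiments 3 and 4). In Ago2KO IPs it was 50535 ± 8902 and 13254 ± 2376 CPM. The same 3 Argonaute mRNAs were lower against Upf1KO, at -1.24 ± 0.07 for Ago2, -0.63 ± 0.10 for Ago3 and -0.26 ± 0.07 for Ago1 (edgeR adjusted p = 2.48e-17, 4.78e-06 and 0.00489). In that comparison 13.5% of all genes were lower and 10.9% higher. Against HA-Tnrc6a, Ago2, whose gene is the one targeted, was the only one of these 14 genes with a value as low as any of the 4 chosen mRNAs, and against Upf1KO none was. Since the 4 were chosen for low values in these comparisons, nothing is read from that.

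**Figure D5:**
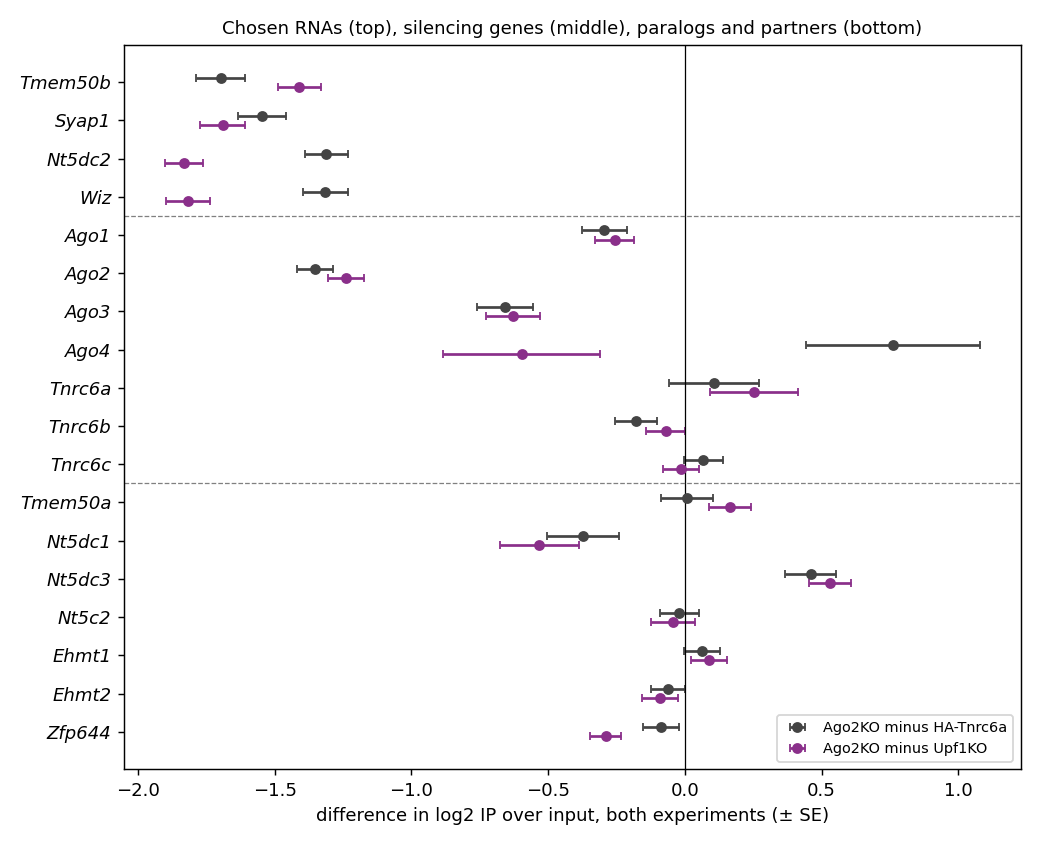
Difference in log2 IP over input between Ago2KO and HA-Tnrc6a (grey) or Upf1KO (purple) cells over both experiments (± SE), for the 4 chosen mRNAs, 7 silencing genes and 7 paralogs and partners. Of the listed genes Ago2 is lowest (-1.35 and -1.24), beside -1.70 to -1.31 and -1.83 to -1.41 for the chosen mRNAs.

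Over the 48 libraries the log2 levels of the 4 mRNAs varied together, as a description of libraries that share tag, fraction and experiment. Pearson's r was highest between Syap1 and Wiz (0.979) and lowest between Syap1 and Nt5dc2 (0.819). Among 11090 other genes with an average log2 CPM of at least 3, those most like Tmem50b were Bri3bp (0.976), Entpd5 (0.975) and Eri1 (0.975), which encode a membrane protein, an endoplasmic reticulum nucleotidase and an exoribonuclease. Most like Syap1 were Zbed4 (0.988), Vamp3 (0.988), a vesicle SNARE, and Dnaja3 (0.985), a mitochondrial chaperone. Most like Wiz were Xylb (0.992), which encodes xylulokinase, Mknk2 (0.990), a kinase of the translation factor eIF4E, and Cdca7 (0.989). For Nt5dc2 they were Romo1 (0.961), Zfp580 (0.959) and Ccdc92 (0.956), all less alike than the nearest genes of the other 3.

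The genes most like each mRNA were also recovered less from Ago2KO lysates, and against HA-Tnrc6a less so than the mRNAs they resemble. Their log2 differences to HA-Tnrc6a were -0.73 for Bri3bp, -1.25 for Entpd5 and -1.46 for Eri1, then -1.09 for Zbed4, -1.15 for Vamp3 and -0.73 for Dnaja3. They were -1.14 for Xylb, -0.95 for Mknk2 and -1.08 for Cdca7, and the smallest were those of the genes like Nt5dc2, at -0.59 for Romo1, -0.23 for Zfp580 and -0.57 for Ccdc92. Against Upf1KO, Eri1 was lower than Tmem50b, at -1.51 beside -1.41. Since these genes were picked for likeness over the same libraries, their values carry no test. The mRNAs they resemble were chosen for low values, so nothing is read from which of them is lower.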

How the data were processed

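The authors deposited 1 table of raw read counts per gene and library, made with stranded TruSeq total RNA libraries per the labels' protocols. The submitters' processing notes name bcl2fastq 2.20, STAR 2.7.3a, GRCm38 and mm10. The deposited gene length column, a value of its own kind in bases, served for RPKM. A further 48 per-library columns were not used. Column numbers 1 to 3 were taken as experiment 3 and 4 to 6 as replicates 1 to 3 of experiment 4, which is inferred from the numbers in the column names and not given there. Of 20171 genes, 16427 had symbols in the table, 3725 took theirs from the reference and 19 had none.

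Counts were fitted with edgeR 4.0.16 (limma 3.58.1, R 4.3.3). The fit used TMM scaling, filterByExpr with a minimum count of 10, the robust quasi-likelihood fit, 1 coefficient per group and only the groups of a comparison. Contrasts averaged both experiments equally, or took experiment 4 less 3, with two-sided tests and Benjamini-Hochberg adjustment over all genes. SEs are the log2 change over the square root of F. Levels in CPM used TMM over all 48 libraries, with a prior count of 2 for log2 values. Triplicate dishes are the replicates. Intervals from reads without molecular identifiers cover counting error only, and none are given. The scripts were tested on simulated counts. The alternatives were RLE size factors, library totals, all libraries in 1 fit, a replicate block, no count filter, DESeq2 1.42.0 and leaving out each library. No count filter and DESeq2 were run only for the bead background and for Ago2KO recovery against HA-Tnrc6a or Upf1KO. In the other comparisons, leaving out a library kept the gene filter and the variance estimates of the main fit.

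A planned test of the 4 mRNAs for a difference of the Ago2KO values between experiments is not reported, because it draws on the libraries that chose them. The 4 mRNAs, both gene lists and the tests were chosen with earlier results of these data known. Named are the 4 mRNAs, the targeted genes, overlapping neighbours, both lists and the 3 genes most correlated with each mRNA. Sites of microRNA seeds in their untranslated regions were not analysed here.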

Additional observations from a re-analysis of the deposited data

Results flagged for a closer look

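Wiz in the inputs of untagged cells moved in opposite directions in the 2 experiments when set against HA-Tnrc6a inputs. In experiment 3 the 3 untagged inputs, at 57.6, 62.3 and 62.8 CPM, were all below the 3 HA-Tnrc6a inputs, at 66.8, 67.7 and 66.5 CPM, a log2 difference of -0.14 ± 0.05 (SE). In experiment 4 they were all above them, at 69.8, 67.0 and 70.2 CPM against 64.2, 60.0 and 64.2 CPM, a log2 difference of 0.13 ± 0.05. The difference between the experiments was 0.27 ± 0.07 on the log2 scale and was not tested.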

How the results depend on the processing

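The 4 mRNAs kept a lower recovery in Ago2KO lysates under all alternatives run, with a median log2 difference to HA-Tnrc6a of -1.47 to -1.38 and to Upf1KO of -1.77 to -1.67 when each library was left out. Same-numbered libraries did not all vary together. Their deviations from the group means had a mean correlation of 0.0651 (-0.281 to 0.669), with 54 of 168 pairs over 0.1 against 31 of 336 with different numbers. For input and IP of a genotype the mean was 0.102, with 9 of 24 pairs over 0.1 against 2 of 48. Same-numbered pairs were thus over 0.1 more often. The labels tie no numbers together, so the main fits use no block and it is given only here. With the block the medians were -1.43 and -1.71, and 1732 genes passed for the background difference between experiments in place of 552. For bead background itself, edgeR adjusted p with the block was 1.59e-05 for Tmem50b, 0.000484 for Syap1, 0.00584 for Nt5dc2 and 0.0987 for Wiz.

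That background count was 2161 with library totals, 1049 with all libraries in 1 fit and 975 with DESeq2, and 304 to 1010 leaving out each library. For the Ago2KO difference between experiments the count was 39 against HA-Tnrc6a, 104 with DESeq2 and 24 to 71 leaving out each library. Against Upf1KO it was 25, with 13 in 1 fit, 88 with DESeq2 and 15 to 118 leaving out each library. The background count moved by over 1.5 times without each of the 6 untagged inputs, to 1010 without replicate 1 of experiment 3 and to 304 to 319 without any of the others. Against HA-Tnrc6a it did so without replicate 3 of the Ago2KO IPs (71) or of the HA-Tnrc6a IPs (61) of experiment 3, and HA-Tnrc6a input 3 of experiment 4 (24). Against Upf1KO it did without Ago2KO inputs 1 (15) or 2 (16) or Ago2KO IPs 2 (118) or 3 (16) of experiment 3, and Upf1KO IP 3 of experiment 4 (43). The cause was not tested.

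Library totals shifted the median of all genes by -0.16, -0.15 and -0.26 in recovery over untagged cells, and the medians of the 4 mRNAs moved to 2.90 for HA-Tnrc6a, 1.45 for Ago2KO and 2.92 for Upf1KO. The untagged IP level moved to -2.89, beside a shift of 0.15 over all genes. Recovery over untagged cells from Upf1KO lysates had a median of 3.06 to 3.23 leaving out each library, and the input level of untagged cells one of -0.0311 to 0.0015.

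Values near 0 changed sign. With library totals these were Wiz in the background (-0.0814), Tmem50b (0.0953) and Nt5dc2 (0.1135) in its difference between experiments, and Wiz in Upf1KO inputs (0.0104). With RLE size factors it was Wiz in untagged inputs (0.002), and in 1 fit Wiz in the difference between experiments against Upf1KO (-0.0013). Leaving out each library, the difference between experiments ran from -0.0373 to 0.1503 for Syap1 in the background, from -0.0268 to 0.2046 for Wiz against HA-Tnrc6a, and against Upf1KO from -0.0688 to 0.1428 for Wiz and from -0.1642 to 0.0862 for Tmem50b. Wiz in untagged inputs ran from -0.0185 to 0.0183.

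The lowest count of the 4 mRNAs in any library was 159, and input and IP levels are shares of what was sequenced, not amounts.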
